A study of Mus musculus with 12 samples.

Results

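The comparison set sorted cortical neurons of the P4 group against those of the adult control group and used 6 of the 12 RNA-seq libraries of the series, 3 from each group, chosen by their labels. The header of P4 4 reads P3 in the count table, and the column was matched through its number. Both groups came from C57BL/6 mice and carry the label control, so neither was assigned a stroke or the GDF10 siRNA of the other 6 libraries. The text on photothrombotic stroke in the labels is attached to every sample, and the text on housing calls every animal adult, the P4 animals included. In mouse work P4 usually marks the fourth day after birth, but the labels do not spell it out, and they give neither the age of the adults nor whether each library was a separate animal. P-values therefore measure the spread between libraries, which may be technical. Which marker or dye the sort used is not stated in the labels. The series asks about GDF10, a ligand related to bone morphogenetic proteins, in axonal sprouting after a stroke.

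In the first postnatal days of rodents, most cortical neurons have finished dividing and migrating and are extending axons and dendrites. Their growth cones depend on unstable microtubules, on membrane proteins such as GAP-43 and on receptors for guidance cues. Synapse formation, the myelination of axons by oligodendrocytes and the assembly of perineuronal nets follow later, and several channel and receptor families exchange one subunit for another on the way.

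Total counts were 21821572, 36009796 and 10517638 in adult control 1, 2 and 3 and 48633350, 46028261 and 17544485 in P4 4, 5 and 6, and values are given in this order throughout. Levels are CPM (counts scaled to library size) scaled with TMM factors, which are not divided by gene length, so they are compared within a gene and not between genes. Correlations of log2 CPM were 0.994 between P4 4 and P4 5 and 0.922 to 0.927 between these and P4 6. Among the adult control libraries they were 0.945, 0.818 and 0.759, the last 2 with adult control 3, which has the fewest counts. P4 numbers run from 4 to 6 and adult control numbers from 1 to 3, so a batch that follows the numbers cannot be told apart from the group. Sex markers were not matched. Xist, the RNA that coats the inactive X chromosome, was at 6.50, 3.23 and 193 CPM in adult control and 3649, 2082 and 2045 CPM in P4, and the Y-linked Ddx3y at 190.1, 109 and 474 CPM in adult control and 0.0562, 33.5 and 148 CPM in P4. How much these differences between libraries contribute to the results was not tested.

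Of 23253 genes, 17909 had enough counts to test. A gene was called where its adjusted p, from edgeR's quasi-likelihood test with Benjamini-Hochberg adjustment over all genes tested, was under 0.05. In P4, 1132 genes rose, which is 6.32% of those tested, and 1869 fell, which is 10.4%, together 16.8%. The median log2 fold change over all genes tested was -0.16. Values of all 3 P4 libraries lay above all 3 adult control libraries for 16.1% of genes and below them for 16.0%. Of the called genes, 1115 that rose and 1714 that fell showed no overlap between the groups. Without P4 4 the counts were 731 and 1121, without P4 5 the lower count was 1215, and with the 6 libraries alone they were 678 and 961, whereas DESeq2 called 1851 higher. Gene lists were read against these shares. At one end of the range stood the immature neuron and growth cone list, with 28 of 34 genes called higher, and at the other the oligodendrocyte list, with 12 of 12 called lower.

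**Figure D1:**
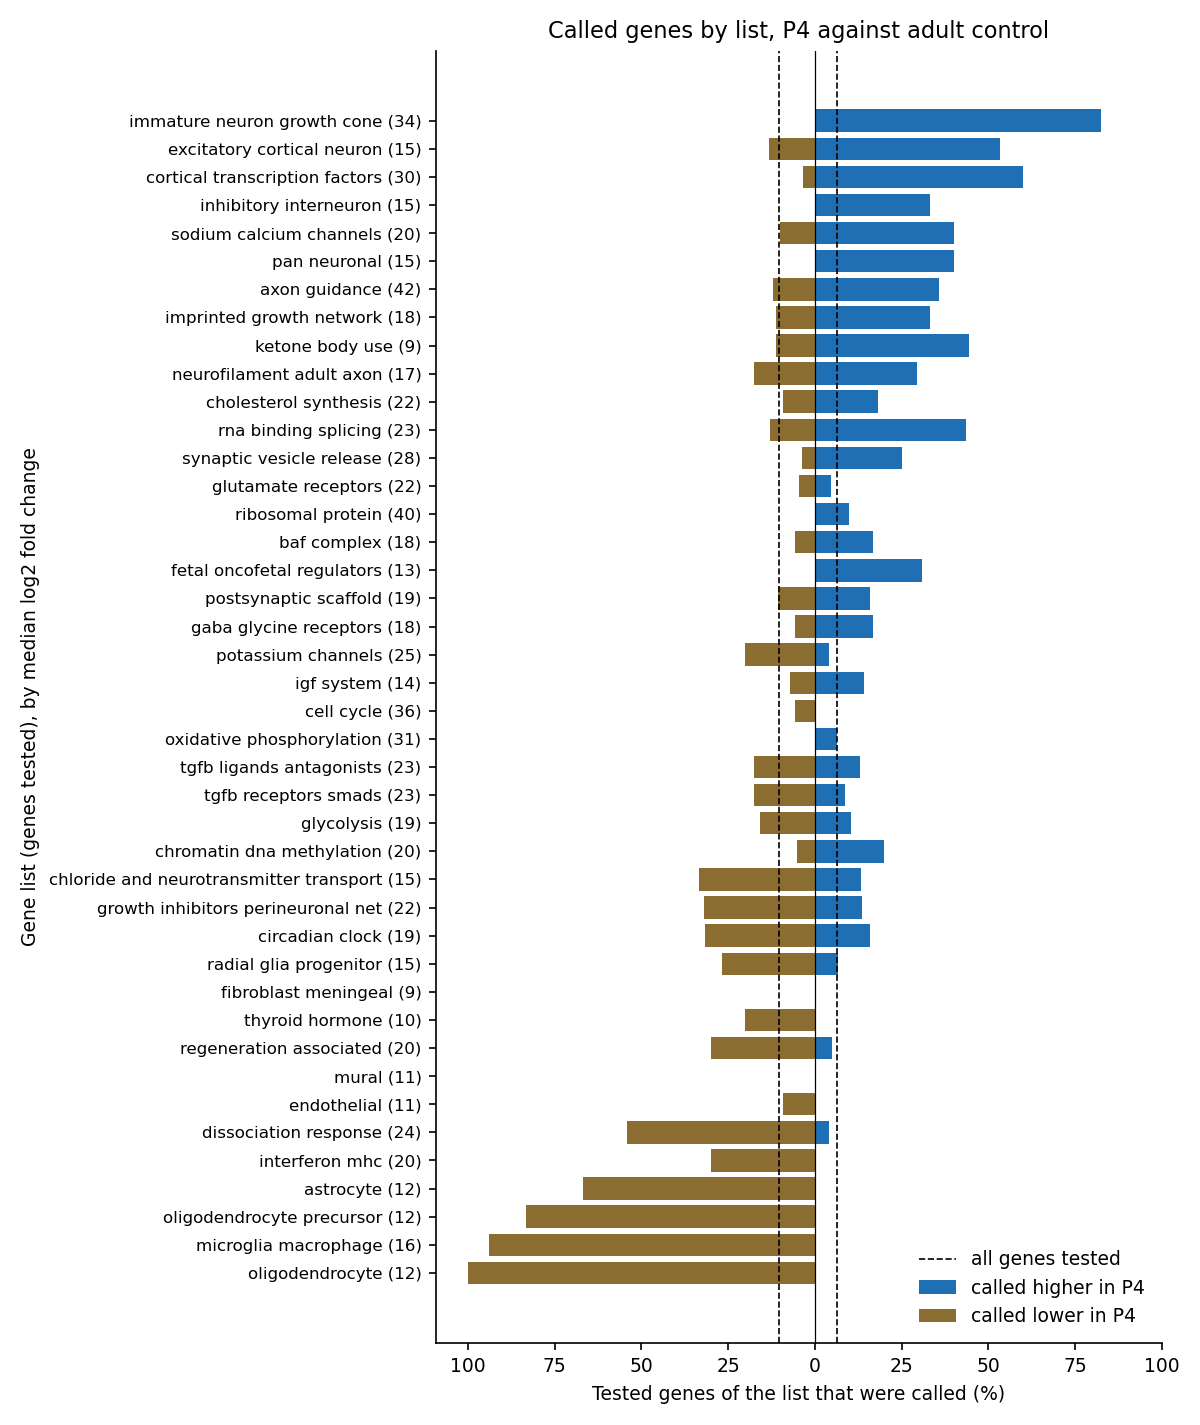
Percent of the tested genes of each list that were called higher (bars to the right) or lower (bars to the left) in P4 than in adult control, with the number of genes tested in brackets and lists ordered by their median log2 fold change. Dashed lines mark the shares over all genes tested, 6.32% higher and 10.4% lower, and the 4 glial lists reach far beyond the left line.

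Genes of mature oligodendrocytes were far lower in P4 than in adult control, although both groups were labelled as sorted neurons. All 12 oligodendrocyte genes fell, with a median log2 fold change of -8.66. Mobp, a myelin protein gene (chr9:120149742-120181488, mm10), was at 946, 1241 and 944 CPM in adult control and 0.636, 0.476 and 2.03 CPM in P4, a fitted log2 change of -10.07 ± 0.59 (SE) with adjusted p = 7.8e-08. Mal, a proteolipid of myelin membranes, was at 2519, 4142 and 1882 CPM in adult control and 1.39, 1.13 and 5.01 CPM in P4, a fitted log2 change of -10.20 ± 0.72 (SE) with adjusted p = 3.3e-07. No adult control library came near the P4 values for either gene. In sum the list took 3.93, 4.24 and 9.44% of counts in adult control and 0.0118, 0.0184 and 0.0317% in P4. Fewer oligodendrocytes in the sort and less RNA per oligodendrocyte cannot be told apart in bulk libraries.

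Genes listed for oligodendrocyte precursors also fell, in 10 of 12 cases, with a median of -3.37. The lineage factor Olig1 was at 226, 463 and 112 CPM in adult control and 8.87, 12.3 and 9.44 CPM in P4 and Sox10, which drives the myelin program, at 189, 552 and 198 CPM in adult control and 7.11, 12.15 and 11.5 CPM in P4. Pdgfra, the growth factor receptor that marks precursors, was at 584, 994 and 326 CPM in adult control and 53.2, 99.2 and 93.9 CPM in P4. Microglia genes fell in 15 of 16, with a median of -4.87. The microglial purinergic receptor P2ry12 was at 177, 129 and 353 CPM in adult control and 0.243, 1.13 and 2.28 CPM in P4, and the fractalkine receptor Cx3cr1 at 54.8, 59.0 and 54.2 CPM in adult control and 0.243, 0.178 and 0.570 CPM in P4. Astrocyte genes fell in 8 of 12, with a median of -2.96. The glutamate transporter Slc1a2 was at 4766, 3131 and 4491 CPM in adult control and 223, 424 and 325 CPM in P4, and Gjb6, which encodes the gap junction protein connexin 30, at 76.8, 39.5 and 33.2 CPM in adult control and 0.206, 0.357 and 1.08 CPM in P4. For these 7 genes every P4 library lay below every adult control library. The astrocyte genes Aqp4, a water channel, and Aldh1l1, a folate enzyme, were not called (adjusted p = 0.86 and 0.6) and were at 62.3, 52.0 and 74.6 against 22.8, 33.2 and 109.6 CPM and 3.81, 10.11 and 3.42 against 4.06, 3.29 and 1.65 CPM, adult control first.

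The other cell types in the sort could be followed as summed shares of counts. Astrocyte genes took 0.697, 0.489 and 0.491% of counts in adult control and 0.0359, 0.0612 and 0.0559% in P4. For microglia genes the shares were 0.0968, 0.122 and 0.0805% of counts in adult control and 0.00290, 0.00446 and 0.00438% in P4. Endothelial genes took 0.0125, 0.0157 and 0.00557% of counts in adult control and 0.00138, 0.00163 and 0.00206% in P4, and of 11 tested, 1 was called, the glucose transporter gene Slc2a1, which glia also express. edgeR called none of 11 mural cell genes and none of 9 fibroblast genes. At an unadjusted p under 0.05, 1 gene of each was lower, and DESeq2 called 1 and 0. With 3 libraries against 3, an exact two-sided permutation test of a share cannot give a p below 0.1, which is the value for the oligodendrocyte, precursor, astrocyte, microglia and endothelial shares. After adjustment over the lists each of these was at 0.168. The glial shares separate the groups in the same way as the results that follow, and their part in the change of a single gene was not tested. Ratios between genes that neurons express are given where they bear on this.

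**Figure D2:**
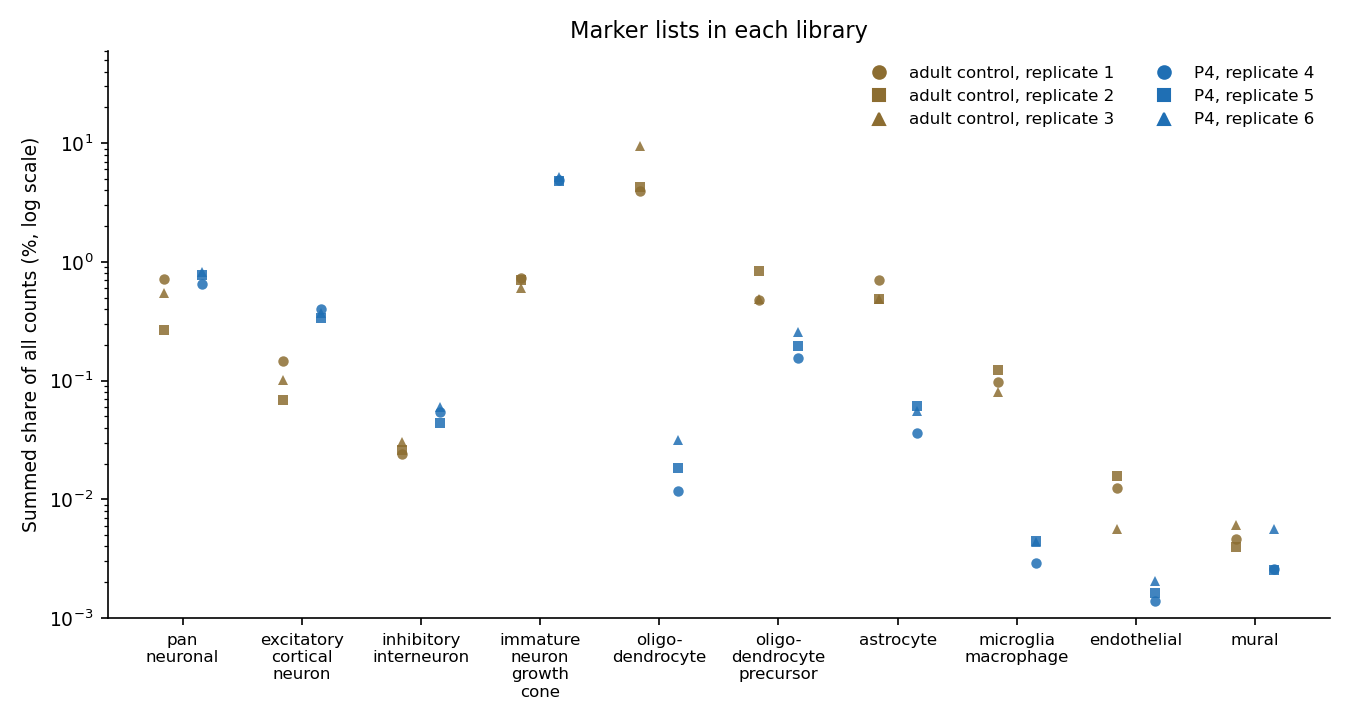
Summed share of all counts in percent, on a log axis, for 10 gene lists in the 3 adult control and 3 P4 libraries, each point being 1 library. Oligodendrocyte genes span 3.93 to 9.44% in adult control and 0.0118 to 0.0317% in P4, while the pan-neuronal points of the groups overlap.

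Markers of neurons as a class shifted less than those of glia. The pan-neuronal list took 0.717, 0.267 and 0.549% of counts in adult control and 0.646, 0.774 and 0.826% in P4, which overlap (exact permutation p = 0.2). Abundant members such as Snap25 weigh heavily in this sum. Without the genes shared with a list, it is also the denominator of the list ratios given below. Of its 15 genes 6 rose, with a median of 1.43, and 13 had a log2 fold change above 0. Nsg1, which encodes a protein of neuronal endosomes, was at 14.1, 13.6 and 12.09 CPM in adult control and 250.3, 214 and 172 CPM in P4, a fitted log2 change of 4.00 ± 0.40 (SE) with adjusted p = 7.8e-06. Map2, a microtubule protein of dendrites, was at 293, 199 and 377 CPM in adult control and 1033, 855 and 1051 CPM in P4. Snap25, a core protein of synaptic vesicle fusion, was at 3661, 1115 and 4116 CPM in adult control and 865, 1038 and 3121 CPM in P4 and was not called (adjusted p = 0.31). Nsg1 and Map2 separated the groups fully. Values of Snap25 were highest in adult control 3 and lowest in P4 4, and the groups overlapped.

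Genes of excitatory cortical neurons rose in 8 of 15 cases and fell in 2. Slc17a6, the vesicular glutamate transporter VGLUT2, was at 11.6, 7.75 and 20.8 CPM in adult control and 180.4, 182 and 321 CPM in P4, a fitted log2 change of 4.10 ± 0.56 (SE) with adjusted p = 1.3e-04. Its relative Slc17a7, VGLUT1, which cortical neurons use in the adult, was at 57.7, 47.7 and 51.8 CPM in adult control and 22.2, 76.1 and 12.3 CPM in P4 and was not called (adjusted p = 0.61). Both genes that fell mark mature neurons: Camk2a, a kinase of excitatory synapses, was at 555, 304 and 422 CPM in adult control and 68.9, 157 and 201 CPM in P4, and Lamp5, a membrane protein of presynaptic terminals, at 39.3, 17.1 and 34.3 CPM in adult control and 1.67, 2.12 and 2.92 CPM in P4. Interneuron genes rose in 5 of 15. Among these were Lhx6, Dlx1 and Dlx2, transcription factors of interneurons, and Adarb2, an RNA-binding protein, and 1 of the 5 kept the call in every fit without 1 library. Dlx1 was at 1.59, 4.30 and 10.49 CPM in adult control and 54.0, 28.8 and 104 CPM in P4, and Lhx6, a factor of interneurons from the medial ganglionic eminence, at 2.26, 1.66 and 3.31 CPM in adult control and 49.5, 54.2 and 44.1 CPM in P4. The neuropeptide gene Sst was at 39.4, 14.4 and 41.6 CPM in adult control and 8.18, 7.00 and 16.8 CPM in P4 and was not called (adjusted p = 0.15). Leaving out 1 library ended the call of Camk2a without adult control 1 or P4 4 or P4 5 (highest adjusted p = 0.098), Lhx6 without adult control 1 or adult control 2 or P4 4 or P4 5 (highest adjusted p = 0.077), Dlx2 without adult control 1 or P4 4 or P4 5 or P4 6 (highest adjusted p = 0.067) and Adarb2 without adult control 1 or adult control 2 or P4 4 or P4 6 (highest adjusted p = 0.12). Interneuron genes called higher numbered 2 without adult control 1, P4 4 or P4 6 and 3 without adult control 2 or P4 5. Set against the summed pan-neuronal genes of each library, the interneuron list differed by 0.31 on the log2 scale, and the groups overlapped (exact permutation p = 0.6). The excitatory list differed by 1.22 without overlap (exact permutation p = 0.1, the smallest possible, 0.22 after adjustment over 11 ratios).

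The list of immature neuron and growth cone genes held 34 genes, of which 28 rose and 0 fell, with a median log2 fold change of 3.78, and 25 of the 28 kept the call in every fit without 1 library. In sum it took 0.724, 0.709 and 0.603% of counts in adult control and 4.87, 4.77 and 5.15% in P4. Relative to the summed pan-neuronal genes of the same library, a ratio that glial RNA enters only through shared expression, its log2 level was 0.02, 1.41 and 0.14 in adult control and 2.92, 2.62 and 2.64 in P4, a difference of 2.21 (exact permutation p = 0.1, the smallest possible). In both measures all 3 P4 libraries lay above the 3 adult control libraries, and the summed share was higher by 7.26-fold in the means. At an unadjusted p under 0.05, 1 gene of the list was lower, the same number as with DESeq2, and without adult control 3 and P4 6, which stand apart, 29 were called higher. Promoters of this list and of the oligodendrocyte list, the 2 extremes of the comparison, are shown here as the 250 bases upstream of an annotated start (RefSeq, GRCm38.p6). Capitals mark the SOX-type letters ACAAAG or ACAATG or the E-box CAGATG on either strand, searched because SOX factors act in neurons and in oligodendrocytes and NEUROD factors in neurons. Each printed stretch holds marked letters, whereas others of both lists, such as those of Sox11 and Mog, hold none. The first 3 belong to genes that rose and the last 2 to genes that fell.
Dpysl5, chr5:30711314-30711563, plus strand: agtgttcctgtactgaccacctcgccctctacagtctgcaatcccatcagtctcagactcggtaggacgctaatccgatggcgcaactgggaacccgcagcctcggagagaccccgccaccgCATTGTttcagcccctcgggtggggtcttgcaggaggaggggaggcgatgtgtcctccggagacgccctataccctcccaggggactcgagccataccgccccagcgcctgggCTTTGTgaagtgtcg
Draxin, chr4:148130699-148130948, minus strand: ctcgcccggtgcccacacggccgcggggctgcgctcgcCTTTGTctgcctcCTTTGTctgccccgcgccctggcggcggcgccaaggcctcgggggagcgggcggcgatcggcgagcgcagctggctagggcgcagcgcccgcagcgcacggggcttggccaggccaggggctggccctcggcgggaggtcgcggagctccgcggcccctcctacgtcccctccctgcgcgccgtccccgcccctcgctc
Tubb3, chr8:123411303-123411552, plus strand: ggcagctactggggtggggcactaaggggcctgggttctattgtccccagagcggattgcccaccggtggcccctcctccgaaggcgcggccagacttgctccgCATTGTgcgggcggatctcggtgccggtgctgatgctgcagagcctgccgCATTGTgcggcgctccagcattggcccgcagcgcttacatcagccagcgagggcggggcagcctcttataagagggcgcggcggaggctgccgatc
Mobp, chr9:120149492-120149741, plus strand: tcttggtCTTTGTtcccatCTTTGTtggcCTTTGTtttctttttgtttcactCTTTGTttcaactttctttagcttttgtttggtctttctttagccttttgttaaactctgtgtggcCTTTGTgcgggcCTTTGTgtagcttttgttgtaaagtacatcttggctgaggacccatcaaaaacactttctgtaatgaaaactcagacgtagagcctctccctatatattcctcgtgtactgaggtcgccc
Ermn, chr2:58052865-58053114, minus strand: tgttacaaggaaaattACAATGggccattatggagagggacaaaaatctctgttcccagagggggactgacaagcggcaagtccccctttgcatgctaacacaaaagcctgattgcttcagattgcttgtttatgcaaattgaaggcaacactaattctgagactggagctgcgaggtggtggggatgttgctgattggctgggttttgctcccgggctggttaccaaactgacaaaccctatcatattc

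Over windows of 300 bases, from 250 before to 50 after the start, a SOX-type match lay in 10 of 26 promoter windows (38.5%) of the growth cone list, from the 20 genes that have a window. The same held for 6 of 12 promoter windows (50%) of the oligodendrocyte list, from 10 genes, and for 28.6% of all 32851 windows. Overlapping windows of a gene, such as those of Mag, can share a match. The Mobp window carries 6 matches in the printed stretch, all as the reverse complement. The E-box CAGATG lay in 4 of 26 promoter windows (15.4%) of the growth cone list and in 17.2% of all windows. These motifs were chosen after the expression values were seen, the matches are descriptions of letters, and binding was not measured.

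The list includes Gap43, Basp1, L1cam and Cd24a, which encode membrane proteins of growing axons. Gap43 (chr16:42248552-42340651), which encodes the growth-associated protein GAP-43, was at 24.2, 11.3 and 25.5 CPM in adult control and 644, 812 and 833 CPM in P4, a fitted log2 change of 5.23 ± 0.48 (SE) with adjusted p = 3.1e-06. Basp1, a related membrane protein of growth cones, was at 153, 44.8 and 222 CPM in adult control and 634, 553 and 4631 CPM in P4, with P4 6 far above the other P4 libraries. L1cam, an adhesion molecule of growing axons, was at 51.2, 48.7 and 71.7 CPM in adult control and 823, 971 and 529 CPM in P4, a fitted log2 change of 3.76 ± 0.38 (SE) with adjusted p = 7.8e-06. Cd24a, a glycoprotein of the surface of young neurons, was at 6.70, 3.85 and 15.3 CPM in adult control and 1715, 1234 and 3631 CPM in P4, a fitted log2 change of 8.02 ± 1.18 (SE) with adjusted p = 2.3e-04. No P4 value of these 4 genes fell into the range of the adult control libraries.

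Collapsin response mediator proteins carry guidance signals to microtubules, and 3 of 5 family members in the list rose: Dpysl3, Dpysl5 and Crmp1. Dpysl3 was at 46.6, 96.3 and 121 CPM in adult control and 3186, 3087 and 1774 CPM in P4, a fitted log2 change of 4.93 ± 0.41 (SE) with adjusted p = 1.3e-06. For Dpysl5 the values were 9.60, 20.3 and 10.27 against 955, 1187 and 541 CPM, a fitted log2 change of 6.06 ± 0.63 (SE) with adjusted p = 1.1e-05. Dpysl2, the family member that also persists in the adult brain, was at 1052, 854 and 784 CPM in adult control and 1009, 1179.7 and 444 CPM in P4 and was not called (adjusted p = 0.97). Stathmins bind free tubulin: Stmn2 was at 62.8, 19.8 and 38.6 CPM in adult control and 1679, 1726 and 2309 CPM in P4, a rise of 5.56 on the log2 scale, whereas Stmn4 was at 114, 107 and 68.3 CPM in adult control and 78.8, 87.6 and 38.9 CPM in P4 and was not called (adjusted p = 0.37). Dcx (chrX:143855842-143933396), doublecortin, which stabilises microtubules in migrating and young neurons, was at 108, 68.9 and 515 CPM in adult control and 6875, 5453 and 9031 CPM in P4, a fitted log2 change of 4.95 ± 0.70 (SE) with adjusted p = 1.6e-04.

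Tubulin isotypes diverged between the groups. Tubb3, the beta tubulin specific to neurons, was at 9.48, 21.3 and 1.82 CPM in adult control and 261, 340.0 and 59.4 CPM in P4, a fitted log2 change of 4.32 ± 0.93 (SE) with adjusted p = 0.0046. Tubb2b, abundant in the developing cortex, was at 6.78, 15.8 and 7.76 CPM in adult control and 148, 209 and 115 CPM in P4. Tubb4a, the isotype of adult brain and of oligodendrocytes, fell and was at 2702, 6222 and 4959 CPM in adult control and 577, 632 and 727 CPM in P4, a fitted log2 change of -2.84 ± 0.34 (SE) with adjusted p = 3.6e-05. Map1b, the microtubule protein of growing axons, was at 1604, 746 and 2416 CPM in adult control and 12021, 12187 and 16421 CPM in P4, and Map1a, the form of mature dendrites, at 707, 1376 and 453 CPM in adult control and 328, 477 and 192 CPM in P4 (adjusted p = 0.056, not called). Reads of close tubulin copies could be split between genes by a counting step of unknown settings, so values of single isotypes are uncertain.

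Factors and secreted proteins of young neurons completed the list. Sox11, a transcription factor of newly formed neurons, was at 39.2, 38.9 and 71.7 CPM in adult control and 986, 679 and 680.0 CPM in P4, a fitted log2 change of 3.97 ± 0.38 (SE) with adjusted p = 5.2e-06. Nrep, a small protein linked to axon regrowth, was at 32.3, 14.1 and 42.5 CPM in adult control and 1339, 1174 and 1671 CPM in P4, a fitted log2 change of 5.56 ± 0.49 (SE) with adjusted p = 2.2e-06. Igfbpl1 (chr4:45809507-45826827), which binds insulin-like growth factor, was at 0.0793, 0.0248 and 0 CPM in adult control and 29.9, 15.9 and 14.5 CPM in P4. The adult values rest on 3 counts in all. The ratio of summed counts, scaled to total counts without TMM factors, was 534 (exact 95% interval 182 to 2589, counting error only). Draxin, a repulsive guidance protein of forebrain commissures, was at 0.198, 0.397 and 0.456 CPM in adult control and 65.1, 63.4 and 25.8 CPM in P4, a fitted log2 change of 7.22 ± 0.92 (SE) with adjusted p = 6.5e-05. 6 members were not called, among them Cntn2, at 355, 929 and 180.2 CPM in adult control and 200.2, 137 and 47.9 CPM in P4 (adjusted p = 0.0504), and Fscn1, an actin-bundling protein, at 63.8, 163 and 29.3 CPM in adult control and 76.4, 96.9 and 26.6 CPM in P4 (adjusted p = 0.74).

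**Figure D3:**
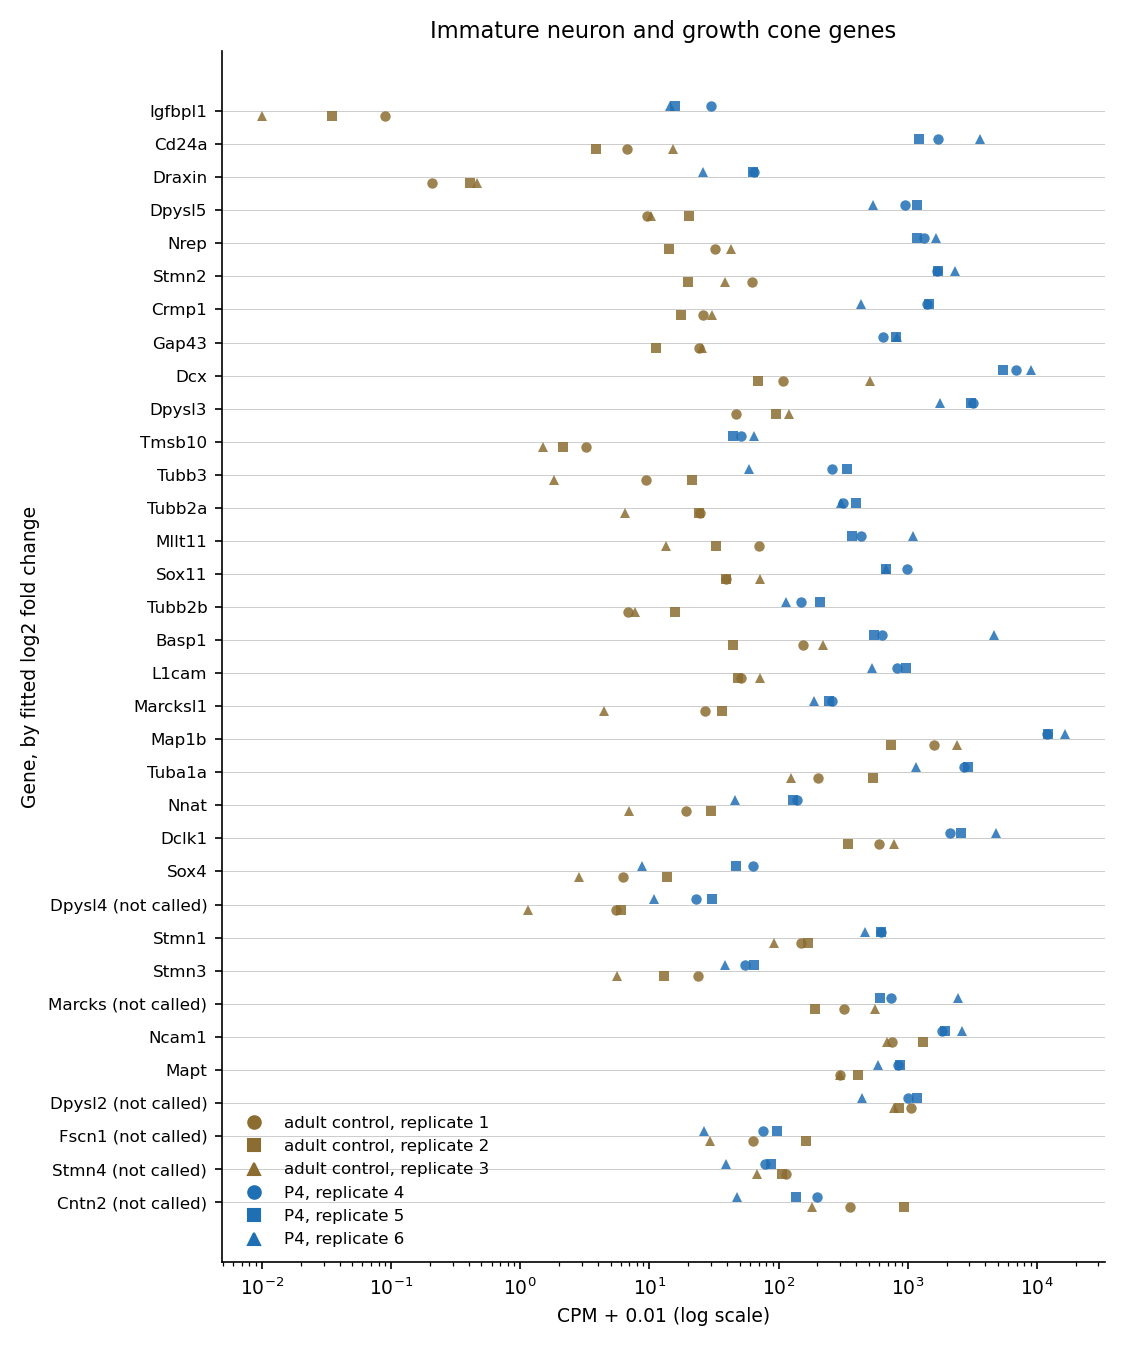
Level of each immature neuron and growth cone gene in CPM plus 0.01, on a log axis, with 1 point per library and genes ordered by fitted log2 fold change. For 28 of 34 genes the call was higher, and the points of P4 and adult control separate by over a factor of 10 for most genes above Tuba1a.

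Outside that list, the genes with the largest rise included secreted and surface proteins. Mdga1, an adhesion molecule that regulates synapse formation, was at 1.23, 0.522 and 0.228 CPM in adult control and 104, 98.6 and 12.04 CPM in P4. Prokr2, a receptor for prokineticins that guides olfactory interneurons, was at 1.67, 0.273 and 0 CPM in adult control and 49.7, 59.9 and 94.0 CPM in P4. Lpl, lipoprotein lipase, was at 5.12, 5.56 and 7.76 CPM in adult control and 272, 241 and 1225 CPM in P4, a fitted log2 change of 6.57 ± 1.00 (SE) with adjusted p = 3.0e-04. Vash2, an enzyme that removes the end tyrosine of alpha tubulin, was at 1.78, 1.32 and 1.60 CPM in adult control and 138, 118 and 74.8 CPM in P4, a fitted log2 change of 6.14 ± 0.84 (SE) with adjusted p = 1.3e-04. Angpt1, the vessel growth factor angiopoietin 1, was at 2.89, 0.0248 and 0.798 CPM in adult control and 52.4, 67.7 and 151 CPM in P4. Stk32b, a kinase, was at 2.34, 0.646 and 1.48 CPM in adult control and 108, 104 and 164 CPM in P4, a fitted log2 change of 6.40 ± 0.62 (SE) with adjusted p = 5.3e-06. The groups were far apart for these 6 genes, with P4 6 the lowest P4 library for Mdga1 and Vash2 and the highest for Lpl, Prokr2, Angpt1 and Stk32b. Further genes of this rank were Syndig1l, Gjc1 and Clmp, with log2 fold changes of 7.57, 6.59 and 6.13.

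The 12 largest falls included Mal, Mobp, Ermn, Opalin, Aspa, Nkx6-2 and Tmem119, which are known from oligodendrocytes or microglia. The other genes of this rank were not assigned to a cell type. Tmem119 was at 13.0, 45.5 and 1.03 CPM in adult control and 0.0374, 0 and 0 CPM in P4, with the highest value in adult control 2. Ptgds, prostaglandin D2 synthase, was at 1383, 1812 and 611 CPM in adult control and 0.487, 0.377 and 3.296 CPM in P4. Serpina3j and Adam26a had no counts in P4. Both calls rest on adult control 3, where they were at 40.1 and 27.1 CPM, beside 0.357 and 0.0248 CPM for Serpina3j and 0.198 and 1.39 CPM for Adam26a in the other adult control libraries. With 1 library left out, the call was lost for Syndig1l without adult control 1 or P4 4 or P4 5 (highest adjusted p = 0.059), Serpina3j without adult control 3 or P4 4 or P4 5 or P4 6 (highest adjusted p = 0.21) and Adam26a without adult control 3 or P4 4 or P4 5 or P4 6 (highest adjusted p = 0.087).

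Transcription factors that set the identity and layer of cortical neurons rose in 18 of 30 cases and fell in 1, with a median of 2.25. Bcl11b, also called Ctip2, of neurons that project below the cortex, was at 6.94, 9.39 and 45.4 CPM in adult control and 143, 147 and 93.2 CPM in P4. Tbr1, of layer 6, was at 65.6, 14.8 and 31.3 CPM in adult control and 203, 185 and 149.9 CPM in P4. Both lay higher in each P4 library than in any adult control library. Mef2c, which shapes synapse number, was at 1029, 223 and 848 CPM in adult control and 4582, 4594 and 4128 CPM in P4, a fitted log2 change of 2.66 ± 0.43 (SE) with adjusted p = 5.5e-04. Foxp1 was at 107, 49.5 and 26.5 CPM in adult control and 533, 490.4 and 480.3 CPM in P4 and Neurod6 at 40.4, 7.28 and 15.9 CPM in adult control and 261, 235 and 220.2 CPM in P4, and in neither did the groups overlap.

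Layer markers were uneven. Rorb, of layer 4, was at 215, 91.8 and 373 CPM in adult control and 946, 623 and 1897 CPM in P4, with P4 6 the highest. Cux2, of upper layers, was at 13.4, 25.2 and 0.912 CPM in adult control and 97.4, 75.5 and 13.2 CPM in P4 and was not called (adjusted p = 0.12), nor was Fezf2, of layer 5, at 9.79, 7.28 and 44.5 CPM in adult control and 40.7, 53.0 and 95.9 CPM in P4 (adjusted p = 0.19). Etv1, also of layer 5, was the member that fell, at 459, 378 and 1989 CPM in adult control and 65.6, 84.6 and 386 CPM in P4, a fitted log2 change of -2.40 ± 0.70 (SE) with adjusted p = 0.027, and P4 6 lay above adult control 2. Relative to the summed pan-neuronal genes of the same library, the list stood at log2 ratios of -0.70, 0.07 and -0.26 in adult control and 1.03, 0.62 and 0.48 in P4, a difference of 1.01 (exact permutation p = 0.1, the smallest possible, 0.22 after adjustment over 11 ratios). In fits without 1 library, edgeR no longer called Bcl11b without adult control 1 or adult control 2 or P4 4 or P4 5 (highest adjusted p = 0.091), Tbr1 without adult control 2 or P4 4 (highest adjusted p = 0.054) and Etv1 without adult control 3 or P4 4 or P4 5 (highest adjusted p = 0.17).

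Axon guidance genes, whose products steer growth cones by attraction or repulsion, rose in 15 of 42 cases (35.7%) and fell in 5 (11.9%), with a median of 1.21. Over all genes tested 6.32% rose and 10.4% fell, so the falls stood near the share over all genes. The receptors Robo2, Robo1, Plxna1, Plxna2, Plxna4, Epha3, Epha4 and Epha7 were among those that rose. Robo2, a receptor for SLIT repellents, was at 62.2, 21.4 and 36.7 CPM in adult control and 635, 732 and 631 CPM in P4, a fitted log2 change of 4.05 ± 0.47 (SE) with adjusted p = 2.9e-05. Plxna4, a receptor subunit for class 3 semaphorins, was at 79.2, 59.1 and 39.7 CPM in adult control and 569.9, 603 and 375 CPM in P4, a fitted log2 change of 3.12 ± 0.48 (SE) with adjusted p = 3.5e-04. Epha4, which receives ephrin signals at stopping points of axons, was at 175, 81.5 and 105 CPM in adult control and 530.3, 479.9 and 531 CPM in P4, a fitted log2 change of 2.09 ± 0.33 (SE) with adjusted p = 4.0e-04. Of the ligands, Efnb2 was at 32.2, 10.24 and 37.1 CPM in adult control and 271, 232 and 249.5 CPM in P4, and Sema3a, a repellent, at 43.1, 11.8 and 28.2 CPM in adult control and 101, 99.0 and 226 CPM in P4. All of these were higher in each P4 library than in any adult control library. Slit1, Slit2 and Slit3 were not called, and Slit2 was at 26.8, 12.25 and 21.2 CPM in adult control and 19.8, 29.8 and 28.5 CPM in P4. Guidance genes called lower numbered 3 without adult control 2 or P4 4.

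Of the 5 guidance genes that fell, Plxnb3 was at 112, 307 and 54.7 CPM in adult control and 4.42, 11.4 and 2.41 CPM in P4, Unc5b, a netrin receptor, at 77.5, 230.0 and 29.4 CPM in adult control and 5.07, 7.71 and 2.54 CPM in P4, and Sema6a at 402, 552 and 941 CPM in adult control and 136, 169 and 271 CPM in P4. Ntn1, netrin 1, was at 8.25, 68.3 and 3.88 CPM in adult control and 3.01, 3.80 and 0.824 CPM in P4, its adult level resting on adult control 2. Plxnb3 and Sema6a are known from oligodendrocytes as well, and they fell beside the oligodendrocyte list. The netrin receptor Dcc was at 50.7, 63.0 and 84.9 CPM in adult control and 103, 123 and 144 CPM in P4 and was not called (adjusted p = 0.097). Of the 5 falls, 3 kept the call in every fit without 1 library. Ntn1 lost it without adult control 2 or P4 4 or P4 5 or P4 6 (highest adjusted p = 0.33). Efnb3 lost it without adult control 2 or P4 4 or P4 6. Of the 15 rises, 12 kept the call in every such fit, and Sema7a, Plxnd1 and Epha5 did not.

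**Figure D4:**
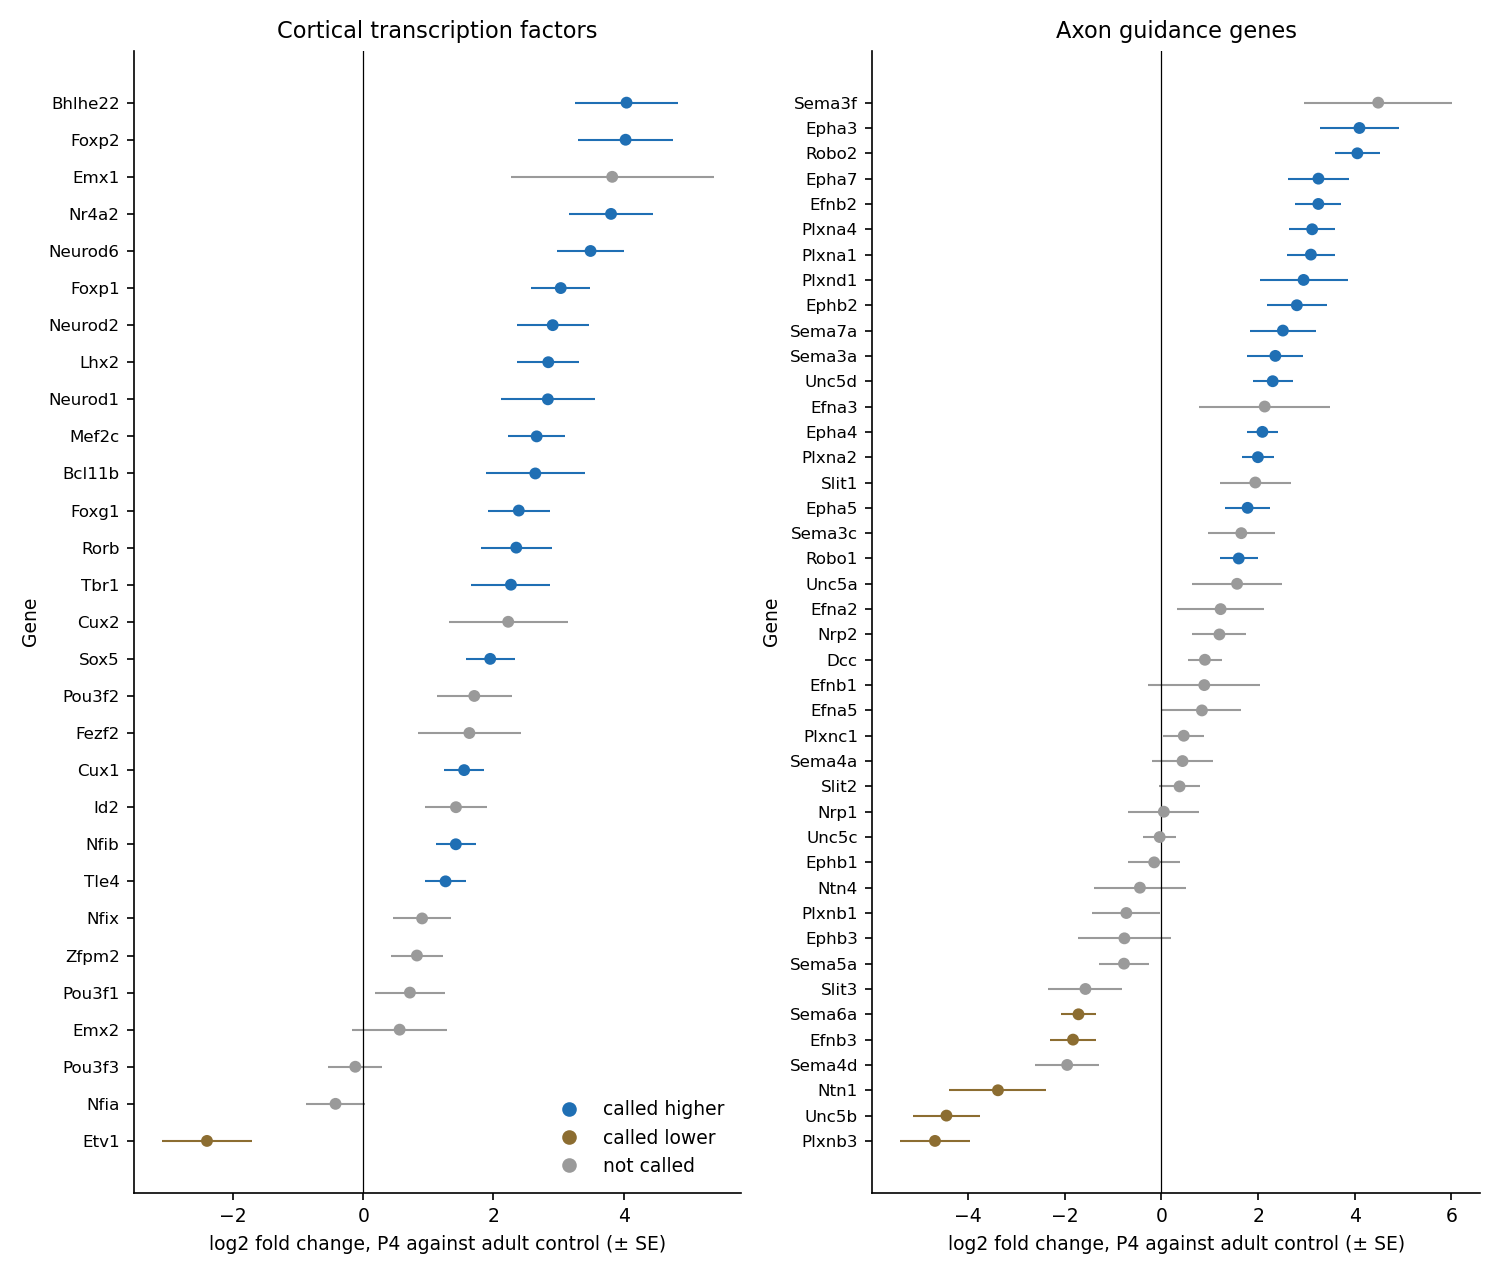
Fitted log2 fold change of P4 against adult control with its standard error for 29 cortical transcription factors (left) and 42 axon guidance genes (right), colored by call. Most transcription factors lie to the right of 0, and the guidance genes that fell end with Plxnb3 at -4.69.

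Inhibitors of axon growth and components of perineuronal nets, the matrix coats of mature neurons, moved in both directions, with 3 of 22 higher and 7 lower. Hapln2, a link protein of nodes of Ranvier, was at 69.0, 123 and 93.1 CPM in adult control and 0.262, 0.297 and 0.380 CPM in P4, a fitted log2 change of -8.27 ± 0.50 (SE) with adjusted p = 9.3e-08. Mag and Omg, myelin inhibitors of regrowth, were at 205, 678 and 84.4 against 0.880, 2.04 and 1.01 CPM and 615, 533 and 2248 against 39.3, 69.7 and 338 CPM. Acan, aggrecan, the core of perineuronal nets, was at 9.08, 19.6 and 2.51 CPM in adult control and 0.393, 1.01 and 1.58 CPM in P4, a fitted log2 change of -3.40 ± 0.90 (SE) with adjusted p = 0.017. Ncan, neurocan, a proteoglycan of the young brain, was at 264, 415 and 165 CPM in adult control and 895, 947 and 1019.8 CPM in P4, a fitted log2 change of 1.76 ± 0.34 (SE) with adjusted p = 0.002. Tnc, tenascin C, was at 2.82, 7.03 and 14.6 CPM in adult control and 41.9, 52.5 and 43.3 CPM in P4, against Tnr, tenascin R, at 252, 679 and 292 CPM in adult control and 121, 145 and 55.1 CPM in P4. Oligodendrocyte lineage cells also make Hapln2, Mag, Omg and Tnr, and the part of these cells in the falls was not tested. The log2 ratio of Ncan to Acan was 4.86, 4.40 and 6.01 in adult control and 11.12, 9.86 and 9.30 in P4, and that of Tnc to Tnr -6.47, -6.59 and -4.32 in adult control and -1.54, -1.46 and -0.35 in P4, with no overlap. Leaving out 1 library ended the call of Omg without P4 5 (highest adjusted p = 0.051), Acan without adult control 2 or P4 4 or P4 5 (highest adjusted p = 0.091) and Tnc without adult control 1 or adult control 2 or P4 4 or P4 5 or P4 6 (highest adjusted p = 0.11). Inhibitor and net genes called higher numbered 1 without P4 4. Inhibitor and net genes called lower numbered 4 without P4 4 or P4 5.

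Synaptic genes held calls in both directions. Of 28 vesicle release genes, 7 rose (25.0%) and 1 fell (3.57%), beside 6.32% and 10.4% of all genes tested. Syn3, the synapsin expressed early in development, was at 90.2, 109 and 86.9 CPM in adult control and 345, 450.2 and 875 CPM in P4, a fitted log2 change of 2.54 ± 0.36 (SE) with adjusted p = 1.6e-04, and Syt4, a synaptotagmin of secretory granules, at 188, 32.7 and 82.0 CPM in adult control and 570.3, 621 and 711 CPM in P4. Unc13a, which primes vesicles for release, was at 38.1, 34.0 and 30.3 CPM in adult control and 206, 264 and 71.6 CPM in P4. Syt11 fell and was at 992, 1598 and 759.7 CPM in adult control and 206, 289.5 and 140.3 CPM in P4. Of the postsynaptic scaffold genes 3 of 19 rose (15.8%) and 2 fell (10.5%, about the share over all genes). Dlg2, among the rises, was at 490.1, 256 and 518 CPM in adult control and 1055, 1175 and 1391 CPM in P4. The falls were Camk2a and Dlg1, the latter at 385, 328 and 333 CPM in adult control and 49.6, 70.0 and 50.5 CPM in P4. Relative to the pan-neuronal genes, neither list separated the groups, with differences of -0.82 and -0.13 on the log2 scale and exact permutation p of 0.2 and 0.8. Synaptic vesicle genes called higher numbered 4 without P4 5.

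Neurotransmitter receptor genes held calls in both directions with all libraries in the fit. Of 22 glutamate receptor genes 1 rose and 1 fell (4.55% each, beside 6.32% higher and 10.4% lower over all genes tested). Grin2b, the NMDA receptor subunit of young synapses, was at 91.9, 54.8 and 63.8 CPM in adult control and 296, 465 and 94.9 CPM in P4, a fitted log2 change of 2.02 ± 0.56 (SE) with adjusted p = 0.022, and Grin2c, a late subunit that glia also express, at 6.58, 7.40 and 2.62 CPM in adult control and 0.206, 0.377 and 0.190 CPM in P4. Grin2a, the mature forebrain subunit, was at 23.99, 18.2 and 12.204 CPM in adult control and 25.5, 28.6 and 15.3 CPM in P4 and was not called (adjusted p = 0.81). The log2 ratio of Grin2b to Grin2a was 1.94, 1.59 and 2.38 in adult control and 3.53, 4.02 and 2.63 in P4, a difference of 1.43 without overlap. Of 18 GABA and glycine receptor genes 3 rose (16.7%) and 1 fell (5.56%). Glra2, the glycine receptor subunit of the embryo and newborn, was at 3.17, 1.34 and 2.28 CPM in adult control and 65.0, 41.0 and 111 CPM in P4, a fitted log2 change of 5.00 ± 0.71 (SE) with adjusted p = 1.6e-04. Gabra5 was at 48.9, 8.55 and 42.1 CPM in adult control and 163, 173 and 809 CPM in P4, with P4 6 the highest. Glrb, the subunit that anchors glycine receptors at synapses, was at 399, 199 and 420.1 CPM in adult control and 81.1, 100.5 and 192 CPM in P4. With 1 library left out, the call was lost for Grin2b without adult control 2 or P4 4 or P4 5 (highest adjusted p = 0.13), Grin2c without adult control 1 or adult control 2 or P4 4 or P4 5 or P4 6 (highest adjusted p = 0.17) and Glrb without adult control 1 or adult control 3 or P4 4 or P4 5 (highest adjusted p = 0.12). Glutamate receptor genes called higher numbered 3 without adult control 3. GABA and glycine receptor genes called higher numbered 7 without adult control 3. GABA and glycine receptor genes called lower numbered 3 without adult control 2.

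Ion channel genes moved in both directions. Sodium and calcium channel genes rose in 8 of 20 cases and fell in 2, with a median of 1.54. Scn3a, the sodium channel of embryonic and newborn brain, was at 57.3, 49.9 and 201 CPM in adult control and 277, 289.5 and 523 CPM in P4, a fitted log2 change of 1.82 ± 0.56 (SE) with adjusted p = 0.038. Scn3b, a beta subunit, was at 36.1, 25.5 and 27.49 CPM in adult control and 308, 360.3 and 224 CPM in P4, a fitted log2 change of 3.32 ± 0.38 (SE) with adjusted p = 2.4e-05, and its relative Scn2b at 26.2, 15.3 and 38.2 CPM in adult control and 4.66, 7.02 and 2.22 CPM in P4. Cacna1b, the N-type calcium channel of growing terminals, was at 62.0, 31.8 and 24.1 CPM in adult control and 426, 453 and 544 CPM in P4, a fitted log2 change of 3.59 ± 0.63 (SE) with adjusted p = 9.9e-04. For Scn3a adult control 3 came close to the P4 range, and for the other 3 the groups were well apart. Potassium channel genes fell in 5 of 25 cases and rose in 1, while the median of the list was 0.47 and 17 of its members had a log2 fold change above 0. Kcna1, which sits beside the nodes of myelinated axons, was at 1295, 1069 and 1183 CPM in adult control and 26.7, 26.1 and 33.8 CPM in P4, a fitted log2 change of -5.36 ± 0.32 (SE) with adjusted p = 9.3e-08. Kcna2 was at 331, 275 and 492 CPM in adult control and 56.2, 65.6 and 83.8 CPM in P4. Kcnj10 and Kcnj16, channels of astrocytes and oligodendrocytes, were at 783, 1205 and 452 against 11.2, 17.8 and 25.4 CPM and 75.5, 140.4 and 212 against 7.08, 13.5 and 17.2 CPM. Kcnma1, the large conductance channel, was at 119, 68.3 and 142 CPM in adult control and 254, 252 and 664 CPM in P4. The summed potassium channel counts relative to pan-neuronal genes, which abundant members dominate, differed by -1.65 on the log2 scale without overlap (exact permutation p = 0.1). For sodium and calcium channels the same ratio differed by 0.59, and the groups overlapped (exact permutation p = 0.2). Glia express several of these channels, and their part in these ratios was not tested. In fits without 1 library, edgeR no longer called Scn3a without adult control 1 or adult control 2 or P4 4 or P4 5 or P4 6 (highest adjusted p = 0.13) and Scn2b without P4 4 (highest adjusted p = 0.055). Sodium and calcium channel genes called higher numbered 5 without adult control 1, P4 4 or P4 5.

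Ratios of related genes within a library do not depend on library scaling, and 27 pairs of an early and a late member were compared. For 16 pairs the groups did not overlap, 12 with a higher and 4 with a lower ratio in P4 (exact permutation p = 0.1 each, 0.17 after adjustment over the pairs), and 11 overlapped. The log2 ratio of Slc17a6 to Slc17a7 was -2.31, -2.62 and -1.32 in adult control and 3.02, 1.26 and 4.70 in P4, a difference of 5.08. That of Tubb3 to Tubb4a was -8.15, -8.19 and -11.36 in adult control and -1.14, -0.90 and -3.61 in P4, and that of Map1b to Map1a 1.18, -0.88 and 2.42 in adult control and 5.197, 4.67 and 6.42 in P4. For Scn3a to Scn1a it was -0.41, -0.05 and 2.16 in adult control and 2.24, 2.18 and 3.00 in P4, where adult control 3 lay just under the lowest P4 value. Oligodendrocytes also express Tubb4a, and their part in the ratio of Tubb3 to Tubb4a was not tested.

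For 4 pairs the ratio of the early to the late member was lower in P4. The log2 ratio of Slc12a2, the chloride importer of young neurons, to Slc12a5, the exporter of mature neurons, was 3.99, 4.76 and 5.23 in adult control and 0.19, -0.49 and 0.05 in P4, a difference of -4.74. Slc12a2 itself was at 2148, 1685 and 2882 CPM in adult control and 109, 112 and 150.2 CPM in P4, a fitted log2 change of -4.18 ± 0.35 (SE) with adjusted p = 1.4e-06, and Slc12a5 at 135, 62.3 and 76.6 CPM in adult control and 95.4, 157 and 145 CPM in P4 (adjusted p = 0.45, not called). Oligodendrocyte lineage cells also express Slc12a2, and their part in this ratio was not tested. For Actl6a to Actl6b, chromatin remodelling subunits of dividing precursors and of neurons, it was 2.86, 2.81 and 9.19 in adult control and -0.57, -0.96 and 0.46 in P4. Actl6b had 0 counts in adult control 3, so that ratio rests on the 0.5 added to each count. For Hk2 to Hk1 and Slc16a1 to Slc16a7, a pair of hexokinases and a pair of monocarboxylate transporters, the differences were -3.66 and -4.94. Vessels and oligodendrocytes also express Slc16a1, and their part in the ratio of Slc16a1 to Slc16a7 was not tested. Dlg3 to Dlg4, Nefm to Nefh and Vamp2 to Vamp1 were among the pairs that overlapped.

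**Figure D5:**
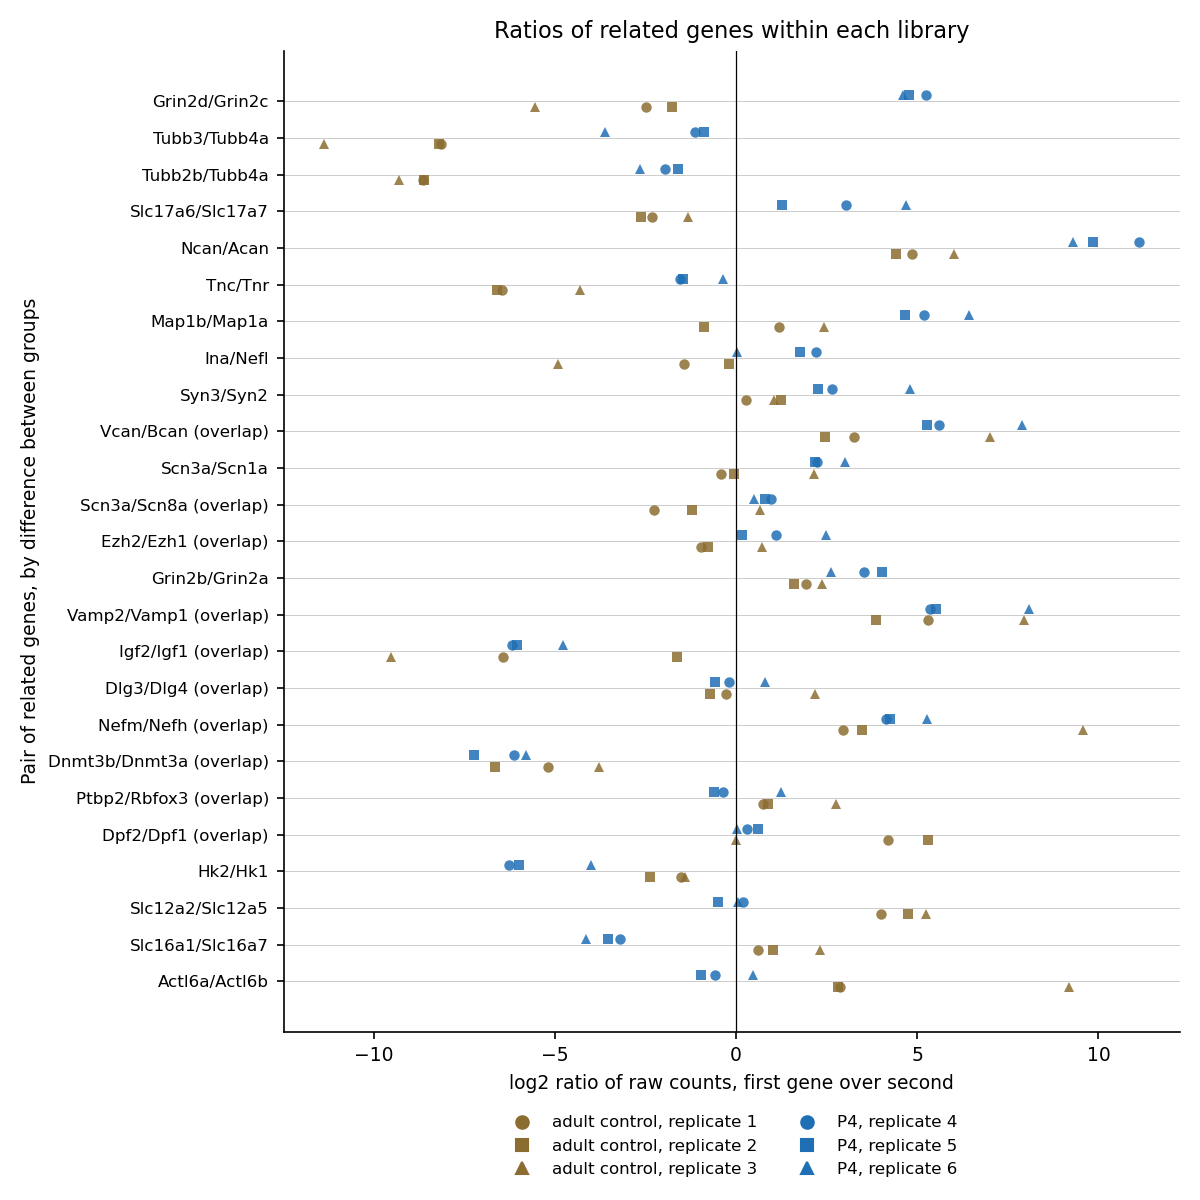
Log2 ratio of raw counts, each plus 0.5, of the first over the second gene of 25 pairs, with 1 point per library and pairs ordered by the difference between groups. The upper pairs hold P4 points to the right of all adult control points, and the bottom 4 pairs hold them to the left.

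Gdf10 (chr14:33923587-33936514) was at 0.595, 0.522 and 0 CPM in adult control and 3.54, 4.78 and 2.09 CPM in P4. GDF10 is the ligand that the series is about. Every P4 library lay above every adult control library, and adult control 3 had a count of 0, which allows up to 3 counts. The log2 fold change of 3.15 (SE 1.65) was not called (adjusted p = 0.22), and over 13 alternative fits the adjusted p ran from 0.084 to 0.46. Of 23 TGF-beta family ligands and antagonists 3 rose (13.0%) and 4 fell (17.4%), beside 6.32% and 10.4% of all genes tested. Inhba, the activin A subunit, was at 6.23, 6.31 and 4.22 CPM in adult control and 179, 91.2 and 103 CPM in P4, a fitted log2 change of 4.47 ± 0.64 (SE) with adjusted p = 1.9e-04. Fstl1, an antagonist of the family, was at 5.39, 7.83 and 0.342 CPM in adult control and 29.3, 41.4 and 30.3 CPM in P4. Bmp4, which restrains oligodendrocyte formation, was at 27.6, 48.59 and 30.9 CPM in adult control and 2.68, 5.05 and 8.56 CPM in P4, and Tgfb3 at 14.8, 17.0 and 47.1 CPM in adult control and 2.55, 3.29 and 2.66 CPM in P4. Ligand and antagonist genes called higher numbered 1 without P4 5.

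On the receiving side 2 of 23 receptors and SMADs rose (8.70%) and 4 fell (17.4%), beside 6.32% and 10.4% of all genes tested. Tgfbr2, the binding subunit for TGF-beta ligands, which microglia express strongly, was at 16.2, 22.9 and 2.17 CPM in adult control and 0.206, 1.66 and 0.570 CPM in P4. Acvr1, a receptor for bone morphogenetic proteins and activins, was at 20.3, 42.1 and 9.69 CPM in adult control and 137, 100.1 and 119.7 CPM in P4, a fitted log2 change of 2.30 ± 0.47 (SE) with adjusted p = 0.003, and Acvr2a, which binds activin, at 76.6, 53.0 and 188 CPM in adult control and 195, 240.4 and 430.1 CPM in P4. Smad7, the inhibitory SMAD that the pathway itself induces, was at 53.0, 63.6 and 33.9 CPM in adult control and 8.01, 6.32 and 4.94 CPM in P4, a fitted log2 change of -2.96 ± 0.39 (SE) with adjusted p = 8.2e-05. Fstl1 lost its call without adult control 1 or P4 4 or P4 5 (highest adjusted p = 0.086). Acvr2a lost it without adult control 1 or adult control 2 or P4 5 or P4 6 (highest adjusted p = 0.13). Of the 4 receptor and SMAD falls, 2 kept the call in every fit without 1 library, and Tgfbr3 and Smad5 did not. Among ligands and antagonists 1 of 3 rises and 3 of 4 falls kept it, and Tgfb1 was the fall that did not. Receptor and SMAD genes called lower numbered 2 without P4 4, P4 5 or P4 6.

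Genes of fuel use and of cholesterol synthesis each held a few calls. Ketone body genes, which let the suckling brain burn fat-derived fuel, rose in 4 of 9 cases. Oxct1, the enzyme that commits ketone bodies to oxidation, was at 189, 196 and 98.5 CPM in adult control and 532, 613 and 591 CPM in P4, a fitted log2 change of 1.84 ± 0.32 (SE) with adjusted p = 0.0011, and Bdh1 at 11.7, 13.4 and 4.45 CPM in adult control and 58.8, 71.0 and 41.0 CPM in P4. Slc16a1, a monocarboxylate transporter of vessels and oligodendrocytes, fell and was at 97.0, 93.3 and 627 CPM in adult control and 14.5, 13.6 and 11.4 CPM in P4. Of 22 cholesterol synthesis genes 4 rose (18.2%) and 2 fell (9.09%), beside 6.32% and 10.4% of all genes tested. Hmgcs1, an early enzyme of the pathway, was at 336, 181 and 239 CPM in adult control and 652, 710.2 and 1433 CPM in P4, a fitted log2 change of 1.89 ± 0.35 (SE) with adjusted p = 0.0016, whereas Ebp, a later step, was at 15.4, 15.6 and 17.5 CPM in adult control and 1.24, 1.31 and 2.54 CPM in P4. The sterol motif CACCCCAC lay in 1 of 19 windows of this list and in 2.87% of all. Of 19 glycolysis genes Pfkp at 53.5, 39.9 and 35.4 against 365, 344 and 224 CPM and Ldha at 77.6, 79.0 and 10.27 against 329.7, 353 and 138 CPM rose, and Aldoc, an aldolase of astrocytes, fell at 76.8, 101 and 6.16 against 2.60, 3.98 and 2.66 CPM. Leaving out 1 library ended the call of Ldha without P4 4 or P4 5 (highest adjusted p = 0.071). Cholesterol genes called higher numbered 2 without adult control 1.

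RNA-binding and splicing genes rose in 10 of 23 cases. Nova2, a splicing factor of cortical neurons, was at 27.7, 41.8 and 10.9 CPM in adult control and 304, 324 and 95.6 CPM in P4, a fitted log2 change of 3.16 ± 0.53 (SE) with adjusted p = 6.7e-04. Srrm4, which drives neuronal microexons, was at 33.3, 11.3 and 4.45 CPM in adult control and 201, 157 and 114 CPM in P4. Celf2 was at 479.8, 188 and 786 CPM in adult control and 2334, 2033 and 3018 CPM in P4, and Ybx1 at 153, 158 and 143 CPM in adult control and 772, 587 and 837 CPM in P4, a fitted log2 change of 2.27 ± 0.33 (SE) with adjusted p = 2.2e-04. P4 6 was the lowest P4 library for Nova2 and Srrm4, still above all adult control libraries. The 3 that fell are Qk, the splicing factor of myelinating glia, and 2 muscleblind genes. Qk was at 6275, 4371 and 22286 CPM in adult control and 163, 182 and 391 CPM in P4, a fitted log2 change of -5.48 ± 0.66 (SE) with adjusted p = 4.3e-05. Mbnl2 was at 952, 654 and 2504 CPM in adult control and 33.4, 49.1 and 98.7 CPM in P4 and Mbnl1 at 529, 369 and 1540.5 CPM in adult control and 122, 98.4 and 243 CPM in P4, and adult control 3 was the highest library for all 3 genes.

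Of the regulators of chromatin, few were called. Of 20 genes 4 rose and 1 fell, and Hdac2, a histone deacetylase, was at 87.4, 71.2 and 143 CPM in adult control and 375, 301 and 515 CPM in P4, a fitted log2 change of 1.98 ± 0.34 (SE) with adjusted p = 8.3e-04. Of the rises, 1 kept the call in every fit without 1 library, and Dnmt1, Hdac9 and Kdm5b did not. In the BAF remodelling complex 3 of 18 genes rose (16.7%) and 1 fell (5.56%). Ss18, a subunit of precursor complexes, was at 57.4, 87.5 and 35.8 CPM in adult control and 10.54, 12.17 and 23.8 CPM in P4, a fitted log2 change of -1.96 ± 0.41 (SE) with adjusted p = 0.004, and its neuronal relative Ss18l1 at 81.8, 43.6 and 51.0 CPM in adult control and 220.3, 188 and 116 CPM in P4. Actl6b was at 2.70, 3.304 and 0 CPM in adult control and 35.8, 36.8 and 11.9 CPM in P4 and was not called (adjusted p = 0.06). In the imprinted growth network 6 of 18 rose, among them Ndn, necdin, at 12.6, 7.30 and 9.47 CPM in adult control and 68.2, 83.5 and 264 CPM in P4, and Meg3, a noncoding RNA, at 354, 184 and 562 CPM in adult control and 1892, 2127 and 1299.5 CPM in P4, while Peg10 fell and was at 107, 88.6 and 185 CPM in adult control and 24.9, 21.4 and 51.5 CPM in P4. Of the fetal regulators that many tumours reuse, 4 of 13 rose, with Mex3a at 1.71, 5.42 and 0.912 CPM in adult control and 141, 115 and 34.6 CPM in P4 and Igf2bp2 at 0.595, 0.298 and 0.798 CPM in adult control and 11.5, 7.23 and 7.92 CPM in P4. With 1 library left out, the call was lost for Ss18l1 without P4 4 (highest adjusted p = 0.065) and Igf2bp2 without adult control 1 or adult control 2 or P4 4 or P4 5 (highest adjusted p = 0.086). Chromatin genes called higher numbered 1 without P4 5 and 2 without adult control 2, adult control 3 or P4 4. BAF genes called higher numbered 1 without P4 4 and 6 without adult control 3. Fetal regulators called higher numbered 2 without adult control 1, P4 4 or P4 5.

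Cell cycle genes showed few calls. Of 36 genes, edgeR called 0 higher, beside 1 at an unadjusted p under 0.05 and 1 with DESeq2, and 2 lower (5.56%, beside 10.4% of all genes tested). The latter were Ccnd1 at 46.6, 138 and 49.7 CPM in adult control and 9.08, 11.7 and 8.11 CPM in P4 and Mcm3 at 2.78, 8.27 and 17.0 CPM in adult control and 1.52, 1.84 and 1.58 CPM in P4, and the median of the list was 0.39. Top2a, of dividing cells, was at 15.1, 25.5 and 24.4 CPM in adult control and 22.8, 26.9 and 42.7 CPM in P4 (adjusted p = 0.48). Mki67 was at 21.7, 28.8 and 281 CPM in adult control and 35.5, 40.7 and 228 CPM in P4 (adjusted p = 0.95), with adult control 3 and P4 6 both far above the other 4 libraries. In RefSeq windows of the list, the CCAAT box lay in 24 of 29 promoter windows (82.8%), the CHR element TTTGAA in 14 of 29 promoter windows (48.3%) and an E2F site, TTTGGCGC or TTTCCCGC, in 4 of 29 promoter windows (13.8%). Over all windows the shares were 37.4%, 17.9% and 1.56%. Radial glia genes gave 1 rise, Fabp7, a fatty acid binding protein, at 50.5, 49.1 and 82.3 CPM in adult control and 133, 117 and 369.8 CPM in P4, and 4 falls, among them Sox2, the stem cell factor that adult glia keep, at 29.0, 35.2 and 118 CPM in adult control and 3.05, 4.14 and 10.08 CPM in P4. In fits without 1 library, edgeR no longer called Mcm3 without adult control 2 or adult control 3 or P4 4 or P4 5 or P4 6 (highest adjusted p = 0.17) and Fabp7 without adult control 1 or adult control 2 or P4 6 (highest adjusted p = 0.12). Cell cycle genes called higher numbered 3 without adult control 3. Radial glia genes called lower numbered 2 without P4 4 or P4 5.

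Of 24 genes that cells switch on within minutes of stimulation or tissue dissociation, 13 fell, 1 rose and 10 were not called, with a median of -1.67. Of the falls, 8 kept the call in every fit without 1 library, and Jun, Nr4a1, Btg2, Dusp1 and Dnajb1 did not. Arc, the activity gene of excitatory neurons, was at 48.61, 73.8 and 82.5 CPM in adult control and 1.70, 1.98 and 0.887 CPM in P4, a fitted log2 change of -5.46 ± 0.51 (SE) with adjusted p = 3.8e-06. Egr1 was at 463, 366 and 388 CPM in adult control and 60.5, 58.3 and 79.4 CPM in P4, a fitted log2 change of -2.62 ± 0.33 (SE) with adjusted p = 6.5e-05. Zfp36, which destabilises messages, was at 74.5, 132 and 122 CPM in adult control and 2.41, 3.19 and 2.85 CPM in P4, and the heat shock gene Hspa1a at 61.8, 92.3 and 41.7 CPM in adult control and 2.28, 2.00 and 0.697 CPM in P4; Hspa1a and Hspa1b are near-identical copies whose reads cannot be assigned with certainty. Each of these 4 genes was lower in every P4 library than in any adult control library. Fosl2 rose and was at 6.98, 9.86 and 11.5 CPM in adult control and 34.8, 49.3 and 27.8 CPM in P4. Fos was at 155, 336 and 173 CPM in adult control and 112, 101 and 232 CPM in P4 and was not called (adjusted p = 0.35). Microglia and astrocytes also switch these genes on, their markers fell in the same libraries, and their part was not tested.  Dissociation response genes called lower numbered 8 without adult control 2 or P4 5.

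Clock genes moved in both directions. Of 19 genes 3 rose and 6 fell. Per3, a repressor of the clock, was at 71.7, 86.9 and 76.1 CPM in adult control and 11.5, 10.29 and 7.99 CPM in P4, a fitted log2 change of -2.97 ± 0.38 (SE) with adjusted p = 6.2e-05, and Bhlhe41, another repressor, at 137, 117 and 134 CPM in adult control and 10.201, 11.8 and 9.70 CPM in P4, a fitted log2 change of -3.61 ± 0.34 (SE) with adjusted p = 4.9e-06. Hlf, an output factor, was at 302, 155 and 302 CPM in adult control and 66.1, 57.2 and 73.5 CPM in P4. Nfil3, which opposes HLF at the same DNA sites, rose and was at 1.35, 2.38 and 0.456 CPM in adult control and 26.7, 25.8 and 14.5 CPM in P4, a fitted log2 change of 3.95 ± 0.66 (SE) with adjusted p = 7.1e-04. Time of day is not given in the labels, so it cannot be told apart from the group. Interferon and MHC genes fell in 6 of 20 cases, beside 12 with DESeq2 and 12 at an unadjusted p under 0.05. In the other direction edgeR called 0, as did DESeq2 and an unadjusted p under 0.05. B2m, the light chain of MHC class I, was at 222, 225 and 436 CPM in adult control and 17.0, 22.6 and 115 CPM in P4, a fitted log2 change of -2.52 ± 0.63 (SE) with adjusted p = 0.012, with P4 6 the highest of the P4 libraries. Microglia express many of these genes, their markers fell in the same libraries, and their part was not tested. Of the 6 interferon and MHC falls, 5 kept the call in every fit without 1 library. B2m lost it without P4 5 (highest adjusted p = 0.0503). Among clock genes 2 of 3 rises and 4 of 6 falls kept the call in every such fit, and Npas2, Per2 and Clock did not. Interferon and MHC genes called lower numbered 11 without adult control 3.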

How the data were processed

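RNA-seq libraries of sorted cortical neurons were prepared with the Ovation RNA-seq System v2 after an RNA-Microprep extraction and sequenced as 69 bp paired reads, per the labels' protocols. The authors deposited raw counts per gene for 23253 genes, together with normalized signal values that were not used here. The authors' edgeR comparison, per the file headers, also gives log2 fold changes, p-values and FDR, which served for a check of direction. CASAVA 1.8.2, edgeR and the mm10 build are named per the submitters' processing notes. Aligner, annotation and strandedness: not given in the sources used here. Reads shared by close copies, overlapping genes or antisense partners therefore cannot be separated. A further 18 columns of log ratios per library were left out. P4 4 was matched to its column by its number, since the header names it P3.

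Counts were tested with edgeR 4.0.16 in R 4.3.3, with filterByExpr by group, TMM factors, the quasi-likelihood test on all 12 libraries, the contrast of P4 minus adult control, and Benjamini-Hochberg adjustment with calls at 0.05. Alternatives were DESeq2 1.42.0, RLE or no scaling factors, filters, the 6 libraries alone and each library left out. The procedure was tested on simulated data, where 5 of 17197 unchanged genes were called. The simulated spread followed the trend over genes, so this rate need not hold for the data. In P4, 1337 genes are higher and 2255 lower at an FDR under 0.05 in the authors' deposited table, which also calls 2952 of the 3001 genes called here, in the same direction. Summed shares, ratios of gene pairs with 0.5 added to each count, and list ratios were compared with exact two-sided permutation tests of 3 against 3 libraries in Python 3.11.15, whose smallest p is 0.1. Intervals and floors of 3 counts cover counting error only. Positions and promoters came from RefSeq on GRCm38.p6, with 22921 genes matched and 18944 of 18965 on the chromosome that the deposited table gives.

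Members and gene lists were chosen with earlier results of these data known. The naming rule took Gdf10, Xist, Ddx3y, the pair genes, per direction the 12 called genes of largest change that did not overlap and averaged 5 CPM or more where higher, and the 5 called members of each list with the smallest p in each direction. Further members named as examples, such as those not called in lists of over 24 genes, were chosen after their values were seen. Some items are not reported here.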

Additional observations from a re-analysis of the deposited data

How the results depend on the processing

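Against 1132 genes higher and 1869 lower, RLE size factors gave 1164 higher and 1822 lower, total counts without a scaling factor 1031 higher and 1835 lower, no filter on low counts 1072 higher and 1814 lower and a stricter filter 1153 higher and 1946 lower. DESeq2 called 1851 higher and 2689 lower, and a fit of the 6 libraries alone, which estimates the spread from fewer samples, 678 higher and 961 lower. Leaving out 1 library at a time gave 731 to 1192 higher and 1121 to 1907 lower. The lowest counts, 731 and 1121, came without P4 4, and without P4 5 the lower count was 1215. An alternative chosen after seeing the data left out adult control 3 and P4 6, which have the fewest counts of their groups, and gave 1557 higher and 1898 lower. Of 229 called genes chosen by the naming rule, 164 kept the call in every fit without 1 library and 161 of 226 in the fit of the 6 libraries. No gene that edgeR called and the text names turned its direction in these fits; shares and ratios, given per library, were not refitted. Among the lists described, the median changed sign without 1 library for growth inhibitors and nets (from -0.42 to 0.17 without adult control 3), glycolysis (from 0.23 to as low as -0.26 without adult control 3, and also without P4 4 or P4 5), TGF-beta ligands (from 0.32 to -0.07 without P4 5), TGF-beta receptors (from 0.23 to as low as -0.08 without adult control 2, and also without P4 4 or P4 6) and chromatin genes (from 0.09 to just under 0 without P4 5). For transporters it went from -0.35 to 0.06 without adult control 3 and P4 6 together, where growth inhibitors and nets were also above 0. Counts of 2 or fewer genes also moved within 0 to 2 without 1 library. No list median changed sign under another scaling. In simulated counts, spiked log2 changes of 1, 2, 3 and 5 were called in 0 of 50, 10 of 47, 27 of 49 and 40 of 50 genes. Smaller changes were thus called less often in the simulation. Its spread followed the trend over genes and it held no library that stands apart, so these rates need not hold for the data. No paired analysis was possible because the replicate numbers of the groups, 1 to 3 and 4 to 6, share none.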

Other observations

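Axon structure genes that mark mature fibres divided between rises and falls, with 5 of 17 higher and 3 lower and a median log2 fold change of 0.97. Ina, alpha-internexin, the intermediate filament of young neurons, was at 20.3, 17.0 and 0.570 CPM in adult control and 199.8, 223 and 77.1 CPM in P4, a fitted log2 change of 3.71 ± 0.94 (SE) with adjusted p = 0.014. Cntnap1, which anchors myelin loops beside the node of Ranvier, was at 16.5, 13.3 and 32.8 CPM in adult control and 1.52, 2.81 and 3.99 CPM in P4, and Nfasc, an adhesion molecule of nodes, at 739, 2102 and 644 CPM in adult control and 323, 414 and 171 CPM in P4. Sptbn4, the spectrin of axon initial segments, was at 6.90, 4.37 and 1.14 CPM in adult control and 33.5, 35.3 and 12.7 CPM in P4. In all 4 genes the groups did not overlap. Oligodendrocytes also express Nfasc, and their part in its fall was not tested. Genes of chloride and neurotransmitter transport fell in 5 of 15 cases and rose in 2. Slc38a1, a glutamine carrier of neurons, was at 62.9, 27.1 and 38.3 CPM in adult control and 297, 259 and 137 CPM in P4, a fitted log2 change of 2.43 ± 0.40 (SE) with adjusted p = 6.4e-04, and its relative Slc38a2 at 2479, 1564 and 2164 CPM in adult control and 334, 272 and 214 CPM in P4, a fitted log2 change of -2.92 ± 0.33 (SE) with adjusted p = 2.2e-05. Leaving out 1 library ended the call of Cntnap1 without P4 4 or P4 5 (highest adjusted p = 0.082), Nfasc without adult control 2 (highest adjusted p = 0.065) and Sptbn4 without P4 4 or P4 5 (highest adjusted p = 0.075). Axon structure genes called lower numbered 1 without adult control 2.

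Genes that injured adult neurons raise when they regrow axons held more falls than rises, as did all genes tested. Of 20 regeneration genes 6 fell (30.0%, beside 10.4% of all genes tested) and 1 rose (5.0%, beside 6.32%). Atf3, an injury transcription factor, was at 34.2, 86.3 and 17.3 CPM in adult control and 0.936, 3.15 and 1.27 CPM in P4, a fitted log2 change of -4.67 ± 0.65 (SE) with adjusted p = 1.5e-04, and Stat3, which relays cytokine signals, at 33.4, 73.6 and 11.5 CPM in adult control and 11.7, 17.95 and 6.78 CPM in P4. Myc was the member that rose, at 9.32, 7.45 and 10.4 CPM in adult control and 68.7, 47.9 and 103 CPM in P4. Atf3 and Jun are also in the dissociation list, and microglia and astrocytes express Stat3, Csf1 and Tgm2, so the fall of the list moves with those shares, whose part was not tested. In the IGF system Igfbp5, a binding protein of insulin-like growth factors, was at 42.6, 38.1 and 14.8 CPM in adult control and 229, 188 and 115 CPM in P4, and Igfbp7 at 2.78, 3.16 and 3.42 CPM in adult control and 0.337, 0.258 and 1.14 CPM in P4. Of thyroid hormone genes, Dio2, the deiodinase of astrocytes that makes active hormone, was at 127, 101 and 199 CPM in adult control and 6.12, 7.04 and 31.9 CPM in P4, and Klf9, a target of the hormone in neurons and glia, at 193, 77.9 and 332 CPM in adult control and 38.6, 40.9 and 86.3 CPM in P4. With 1 library left out, the call was lost for Stat3 without adult control 1 or adult control 2 or P4 4 or P4 6 (highest adjusted p = 0.22), Igfbp7 without adult control 1 or P4 4 or P4 5 (highest adjusted p = 0.14) and Klf9 without adult control 3 or P4 4 or P4 5 (highest adjusted p = 0.095).

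Ribosomal protein genes rose in 4 of 40 cases, with a median of 0.86. Rpl15 was at 25.2, 23.0 and 52.7 CPM in adult control and 137, 128 and 154 CPM in P4, a fitted log2 change of 2.06 ± 0.41 (SE) with adjusted p = 0.0026, and Rpl4 at 258, 329 and 185 CPM in adult control and 527, 454 and 959 CPM in P4. Ribosomal protein genes have many processed copies in the genome, so their counts are uncertain. Oxidative phosphorylation genes rose in 2 of 31 cases (6.45%), which is about the share over all genes tested (6.32%). The 2 were Atp5a1 at 181, 267 and 161 CPM in adult control and 474, 506 and 454 CPM in P4 and Atp5c1 at 108, 116 and 89.4 CPM in adult control and 172, 158 and 350.1 CPM in P4, both subunits of ATP synthase. In fits without 1 library, edgeR no longer called Rpl4 without P4 6 (highest adjusted p = 0.051), Atp5a1 without adult control 1 or adult control 3 or P4 4 or P4 5 (highest adjusted p = 0.072) and Atp5c1 without adult control 1 or adult control 2 or adult control 3 or P4 6 (highest adjusted p = 0.15). DESeq2 called 12 and 5 genes of these lists higher, and an unadjusted p under 0.05 gave 13 and 5. Without adult control 1 or adult control 3, edgeR called 0 oxidative phosphorylation genes higher. In each of these lists edgeR called 0 genes lower, and so did DESeq2 and an unadjusted p under 0.05. Ribosomal protein genes called higher numbered 1 without P4 6, 2 without adult control 1, adult control 3 or P4 4 and 7 without adult control 2.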
